A study of Mus musculus with 2 samples.

Results

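The genes described here are 9 transcription factors and cofactors of the myeloid lineage, namely Cebpa, Cebpb, Cebpd, Cebpe, Spi1, Irf8, Gfi1, Nr4a1 and Cbfa2t3. They were chosen by symbol, and 8 of the 9 were measured among the 27998 genes of both libraries. Cebpd was not analysed here. Single-cell RNA sequencing had been performed on F4/80+CD11b+ cells sorted from the alveolar bone of 8-week-old male C57/B6J mice. The group with orthodontic tooth movement (OTM), labelled Case, carried a nickel-titanium spring on the left first molar for 7 days, and it was set against the Control group. Cbfa2t3 was listed for its low level in OTM, so its difference between the groups is a description only. Each group was 1 library, within which animals cannot be told apart, so no p-value was computed and every interval below covers counting error only. Mouse-to-mouse variation, sort and library cannot be told apart from the force.

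Myeloid cells arise from progenitors in which a small set of transcription factors sets the balance between granulocytes and monocytes. Spi1 encodes PU.1, which acts throughout the myeloid lineage. The C/EBP proteins act in granulopoiesis at successive stages, with C/EBPα in progenitors, C/EBPε in cells that make secondary granules, and C/EBPβ in emergency granulopoiesis and in monocytes. Gfi1 is a repressor required for neutrophil development, while Irf8 is required for monocytes and dendritic cells and restrains the neutrophil fate. Nr4a1 is an orphan nuclear receptor needed for nonclassical monocytes, and it is also an immediate early gene. Cbfa2t3 (also known as Eto2 or Mtg16) encodes a corepressor of the ETO family that does not bind DNA by itself and works through partner proteins.

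Positions are from GENCODE vM21 on GRCm38. Cebpa was placed at chr7:35119293-35121928 and Cebpb at chr2:167688915-167690418, both on the plus strand. Cebpe was placed at chr14:54710360-54712174 on the minus strand, and Spi1 at chr2:91082390-91115756 on the plus strand. Gfi1 was at chr5:107716657-107726036 on the minus strand and Nr4a1 at chr15:101254269-101274795 on the plus strand. Irf8, at chr8:120736358-120756694 on the plus strand, and Cbfa2t3, at chr8:122625141-122699109 on the minus strand, shared a chromosome. Both overlap the annotated gene Gm20388, on the strand of Irf8, which had 0 UMIs in either library. Cebpb overlaps Tmem189 on the opposite strand, which had 882 control and 878 OTM UMIs.

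Promoters are shown for Cbfa2t3, Irf8 and Nr4a1, since these were the 3 measured members that were lower in OTM over all cells. Each window holds the 250 bases before a RefSeq start site on GRCm38.p6, read 5′ to 3′ on the strand of the gene. Capitals mark matches, on either strand, to GAGGAA (the core that PU.1 binds), TTNCNNAA (a C/EBP motif), TGACG (the core of the cyclic AMP response element) or TGTGGT (a RUNX motif). Over all 32851 promoter windows, 23.3% held the first motif, 36.8% the second, 17.8% the third and 14.0% the fourth.
Cbfa2t3, downstream start, chr8:122678176-122678425, minus strand: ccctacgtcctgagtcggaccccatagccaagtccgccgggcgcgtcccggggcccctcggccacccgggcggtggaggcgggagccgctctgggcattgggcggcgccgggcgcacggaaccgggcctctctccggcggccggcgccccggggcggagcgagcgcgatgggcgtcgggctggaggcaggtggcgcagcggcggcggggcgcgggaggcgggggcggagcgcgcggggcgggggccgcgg
Cbfa2t3, upstream start, chr8:122699110-122699359, minus strand: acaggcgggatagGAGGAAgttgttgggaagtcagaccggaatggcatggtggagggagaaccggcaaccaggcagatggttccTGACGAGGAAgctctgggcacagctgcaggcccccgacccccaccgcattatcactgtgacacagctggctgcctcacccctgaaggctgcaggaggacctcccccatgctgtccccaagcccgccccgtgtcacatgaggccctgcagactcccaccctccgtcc
Irf8, chr8:120736108-120736357, plus strand: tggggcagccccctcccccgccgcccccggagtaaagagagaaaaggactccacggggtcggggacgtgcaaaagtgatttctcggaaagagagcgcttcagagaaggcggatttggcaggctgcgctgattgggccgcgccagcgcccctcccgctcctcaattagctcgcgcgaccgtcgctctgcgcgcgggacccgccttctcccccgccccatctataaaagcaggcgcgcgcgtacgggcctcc
Nr4a1, chr15:101266596-101266845, plus strand: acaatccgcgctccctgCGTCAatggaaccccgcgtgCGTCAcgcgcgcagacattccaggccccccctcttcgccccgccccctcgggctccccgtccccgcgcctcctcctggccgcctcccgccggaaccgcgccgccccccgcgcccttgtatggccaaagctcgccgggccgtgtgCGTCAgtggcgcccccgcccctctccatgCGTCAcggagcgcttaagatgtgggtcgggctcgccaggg
The upstream window of Cbfa2t3 held 2 PU.1 cores, 1 of them overlapping a TGACG, and its downstream window held none of the 4 motifs and was 83.2% G and C. The median over all windows was 52.4%. The Nr4a1 window held 4 copies of TGACG on the minus strand, and the Irf8 window shown held none of the 4 motifs. Irf8 had a second window, at chr8:120738389-120738638, which is not shown and also held none of them. A match is a string of letters and not a measured binding site, and the absence of a match says nothing about a factor. Of the 8 measured members, 6 had a promoter entry, and Spi1 and Cebpe had none.

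After filtering, 2835 control cells with 14493851 unique molecular identifiers (UMIs, each the tag of 1 captured RNA molecule) and 2052 OTM cells with 16472699 UMIs were kept. The median cell held 3998 UMIs in the control library and 6861.5 in the OTM library, and 6 barcodes occurred in both. Each library was clustered alone with the members left out of the clustering features, and clusters were named from marker genes, with the suffix -like. The sort label was macrophage, but 36.3% of control cells and 39.1% of OTM cells were neutrophil-like, and 8.68% and 11.9% were granulocyte progenitor-like or cycling immature neutrophil-like cells, here called precursors. Monocyte- or macrophage-like cells made up 53.2% and 48.9%. Adgre1, the gene of F4/80, had a UMI in 34.4% of control and 50.6% of OTM monocyte- or macrophage-like cells, against 3.50% and 3.74% of neutrophil-like cells. A C1q macrophage-like cluster (63 cells), a nonclassical monocyte-like cluster (335 cells) and a B cell-like cluster (52 cells) were separate only in the control library. In the OTM library the precursors formed 1 cluster of 245 cells. Itgam, the gene of CD11b, was not analysed here.

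Cebpe was concentrated in the early granulocyte stages. Levels are given as UMIs of the gene per 1000000 UMIs of the cluster (CPM), with a 95% Poisson interval. In the control library Cebpe stood at 236 CPM (207 to 269, 225 UMIs) in granulocyte progenitor-like cells and at 284 CPM (257 to 313, 402 UMIs) in cycling immature neutrophil-like cells, and these neighbours did not differ beyond their intervals. It was at 152 CPM (136 to 169) in non-cycling immature neutrophil-like cells, 92.9 CPM (68.3 to 124) in interferon-high mature neutrophil-like cells and 32.7 CPM (23.1 to 44.9) in the other mature neutrophil-like cells. The decline thus exceeded the counting intervals from cycling to non-cycling immature cells, and from these to either mature neutrophil-like cluster. The mature clusters differ in interferon response and are not successive stages. Monocyte- and macrophage-like clusters lay between 15.7 and 32.6 CPM, and the 52 B cell-like cells held 0 Cebpe UMIs, for which 3 UMIs would correspond to 9.85 CPM. In the OTM library Cebpe was at 321 CPM (301 to 341, 1014 UMIs) in the precursor cluster and at 60.7 CPM (51.2 to 71.5) in immature and 69.9 CPM (58.9 to 82.3) in mature neutrophil-like cells. The immature and mature intervals overlapped, so no decline between these stages was seen in OTM. The 143 UMIs of that mature cluster came from 38 of its 417 cells. OTM monocyte-like clusters held 8.17 to 32.2 CPM.

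Gfi1 was found in few cells, and mostly in precursors. Over all cells it had 20 UMIs in 17 control cells and 19 UMIs in 19 OTM cells, of which 12 and 15 UMIs came from precursors. The precursor level was 5.07 CPM (2.62 to 8.86) in the control and 4.74 CPM (2.66 to 7.82) in the OTM library, and monocyte- or macrophage-like cells held 1 and 2 UMIs. In precursors, 10 of 10 control and 15 of 15 OTM cells with a Gfi1 UMI also had a Cebpe UMI. Of the precursor cells without a Gfi1 UMI, 78.8% and 83.0% had a Cebpe UMI, so most precursors carried Cebpe whether or not Gfi1 was found.

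Cebpb had by far the most UMIs, 51556 in control and 48958 in OTM cells, and was found in 98.3% and 99.3% of cells. Its level was higher at each later granulocyte stage. In the control library it went from 757 CPM (702 to 814) in progenitor-like cells through 1219.9 CPM (1163 to 1279) in cycling and 2699 CPM (2631 to 2768) in non-cycling immature neutrophil-like cells to 6085 CPM (5944 to 6229) in mature neutrophil-like cells, and no neighbouring intervals overlapped. The interferon-high mature neutrophil-like cells had the highest level, 6587 CPM (6366 to 6815). The OTM library gave the same order, with 1108 CPM in precursors, 2868 CPM in immature and 5240.1 CPM in mature neutrophil-like cells. Among control monocytes the nonclassical cluster was highest at 5241 CPM (5132 to 5351), and C1q macrophage-like cells were lowest at 2062 CPM (1928 to 2203). The B cell-like cluster had 578 CPM (496 to 670), and 71.2% of its cells, at a median depth of 5398 UMIs, had a Cebpb UMI.

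Cebpa was highest in C1q macrophage-like cells and lowest in immature neutrophil-like cells. In the control library the C1q macrophage-like cluster had 65.8 CPM (43.7 to 95.1, 28 UMIs), above every other cluster. Progenitor-like cells had 25.2 CPM (16.2 to 37.5), and cycling immature neutrophil-like cells fell to 1.41 CPM (0.171 to 5.10, 2 UMIs). Mature neutrophil-like cells had 16.4 CPM (9.84 to 25.5, 19 UMIs). Of the 20 cells of that cluster with an Irf8 UMI, 30% had a Cebpa UMI, compared with 2.95% of the others. The other control monocyte clusters lay between 15.1 and 25.9 CPM with overlapping intervals. In OTM, the 2 classical monocyte-like clusters had 32.5 CPM (26.0 to 40.1) and 35.2 CPM (27.8 to 43.9), and immature and mature neutrophil-like cells had 4.67 and 4.40 CPM. After each cell was thinned to 1500 UMIs, a Cebpa UMI was present in 12.7% (5.64 to 23.5) of the C1q macrophage-like cells, compared with 0.188% of the control immature neutrophil-like cells. Without thinning these shares were 27.0% and 2.07%, at median depths of 4914 and 3204 UMIs.

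Spi1 was the flattest member. Among control myeloid clusters it ranged from 184 CPM (162 to 207) in MHC-II-high cells to 376 CPM (324 to 433) in interferon-high mature neutrophil-like cells. B cell-like cells were lower at 98.5 CPM (66.5 to 141). In the OTM library the range was 186 CPM (170 to 203) to 300.1 CPM (277 to 325), the highest being mature neutrophil-like cells.

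Among myeloid clusters Irf8 was highest in monocyte- and macrophage-like cells and lowest where Cebpe was highest among neutrophil-like cells. In the control library its highest myeloid level was in cycling classical monocyte-like cells, 145 CPM (127 to 165, 221 UMIs), followed by C1q macrophage-like cells with 127 CPM (95.3 to 166) and MHC-II-high cells with 110 CPM (93.6 to 128), whose intervals overlapped. Nonclassical and classical monocyte-like cells had 90.7 CPM (76.9 to 106) and 73.6 CPM (64.0 to 84.3). Cycling immature neutrophil-like cells held 2 Irf8 UMIs, 1.41 CPM (0.171 to 5.10). Mature neutrophil-like cells had 62.8 CPM (49.3 to 79.0), from 73 UMIs in 20 of 359 cells, and progenitor-like cells 51.5 CPM (38.1 to 68.1), from 49 UMIs in 11 of 78 cells. The OTM library again had its highest level in cycling classical monocyte-like cells, 110.3 CPM (94.0 to 129, 162 UMIs), whereas its other monocyte-like clusters lay between 35.8 and 70.4 CPM. B cell-like cells, which are known to express Irf8, had 158 CPM (116 to 209).

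**Figure D1:**
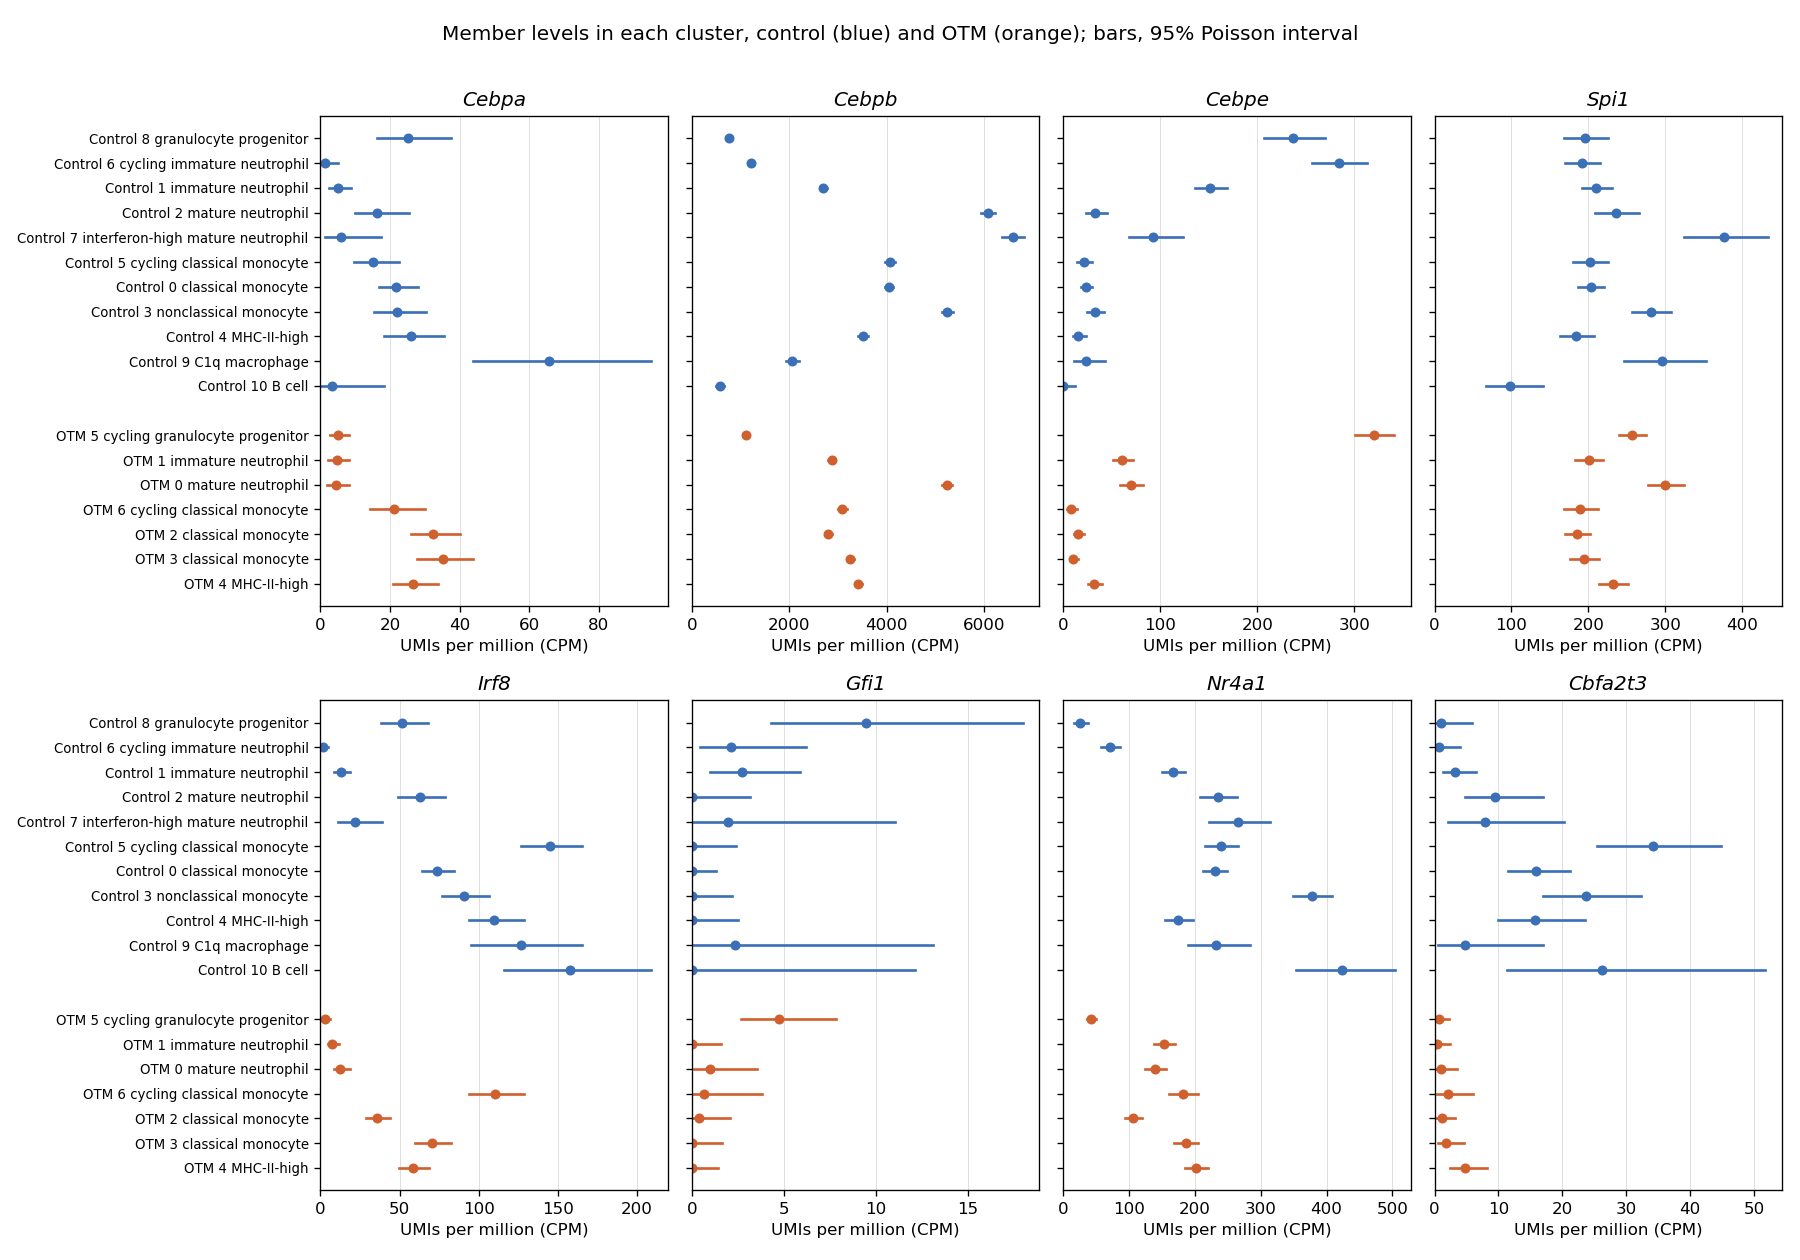
Level of each measured member (x axis, CPM, linear and starting at 0, its own range for each gene) in every cluster (y axis) of the control library in blue and the OTM library in orange, with 95% Poisson intervals as bars. Rows run from precursors to mature neutrophils and then to monocytes and macrophages. Cebpe and Gfi1 peak in the top rows of each library (precursors), Cebpb in mature neutrophil-like cells, and Cbfa2t3 in cycling classical monocyte-like cells in control, Irf8 is highest in the B cell-like row in control and in cycling classical monocyte-like cells in OTM, and the Cbfa2t3 points of OTM all lie below 5 CPM.

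Nr4a1 was highest in nonclassical monocyte-like cells among the control myeloid clusters, at 378 CPM (349 to 409, 638 UMIs). The other control monocyte- and macrophage-like clusters lay between 175 and 240 CPM and mature neutrophil-like cells at 235 CPM (208 to 265). Precursors were lowest, with 25.2 CPM (16.2 to 37.5) in progenitor-like and 70.6 CPM (57.5 to 85.9) in cycling immature neutrophil-like cells. In OTM the highest value was 202 CPM (185 to 220) in the MHC-II-high cluster, and a classical monocyte-like cluster of 343 cells had 106 CPM (94.4 to 119). The 52 B cell-like cells had 424 CPM (354 to 503), from 129 UMIs in 21 cells.

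Cbfa2t3 was found in control monocytes and was scarce in every OTM cluster. The control library held 194 Cbfa2t3 UMIs in 167 cells, 145 of which had exactly 1. The OTM library held 27 UMIs in 26 cells, although it had more UMIs in all. Among control myeloid clusters, cycling classical monocyte-like cells had 34.1 CPM (25.5 to 44.7, 52 UMIs), nonclassical monocyte-like cells 23.7 CPM (16.9 to 32.3, 40 UMIs), classical monocyte-like cells 15.8 CPM (11.6 to 21.2, 45 UMIs) and MHC-II-high cells 15.7 CPM (9.96 to 23.6, 23 UMIs). The intervals of neighbours in this order overlapped, while those of the highest and of the classical monocyte-like cluster did not. The 52 B cell-like cells had 26.3 CPM from 8 UMIs, C1q macrophage-like cells had 4.70 CPM from 2 UMIs, and the 2 precursor clusters had 1 UMI each. In OTM the MHC-II-high cluster had 4.72 CPM (2.44 to 8.24, 12 UMIs), cycling classical monocyte-like cells 2.04 CPM (0.421 to 5.97, 3 UMIs), and the other 2 classical monocyte-like clusters 1.12 and 1.805 CPM from 3 and 4 UMIs. The share of monocyte- or macrophage-like cells with a Cbfa2t3 UMI was 9.28% in control and 2.09% in OTM at median depths of 4363 and 7829 UMIs. After thinning to 1500 UMIs per cell it was 3.71% (2.82 to 4.795) and 0.299% (0.0617 to 0.871). The control immature neutrophil-like cells, which served as a background, had 0.377% (0.0456 to 1.35) after thinning and 1.13% before it, at a median depth of 3204 UMIs. Within the OTM library, neutrophil-lineage cells held 3 Cbfa2t3 UMIs, 0.681 CPM (0.141 to 1.99), and monocyte- or macrophage-like cells 22 UMIs, 2.47 CPM (1.55 to 3.74), with overlapping intervals. The MHC-II-high cluster lay above the OTM immature neutrophil-like cells, which had 1 UMI, 0.424 CPM (0.0107 to 2.36), without overlap. Its interval did overlap that of the OTM mature neutrophil-like cells, which had 2 UMIs, 0.977 CPM (0.118 to 3.53).

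Across all cells, 3 of 7 members with at least 100 UMIs over both libraries were lower in OTM by 1.5-fold or more, and 0 were higher. Of all 8073 genes with at least 100 UMIs, 16.0% were lower and 4.21% were higher by that measure, and the median log2 ratio was -0.18. Cbfa2t3 fell from 13.4 to 1.64 CPM, 8.17-fold lower (5.44 to 12.7, 95% exact conditional interval), and it ranked 12 from the lowest ratio among the 8073 genes. It was listed for its low level in OTM. Its rank and its place among the lower members, here and within lineages, therefore follow in part from that choice. Irf8 fell from 69.7 to 37.5 CPM, 1.86-fold lower (1.68 to 2.06). Nr4a1 fell from 210 to 137 CPM, 1.53-fold lower (1.45 to 1.62). Cebpa (ratio OTM over control 1.06, 0.897 to 1.26), Cebpe (1.04, 0.964 to 1.12) and Spi1 (1.03, 0.978 to 1.08) had intervals that included 1. Cebpb had a ratio of 0.836 (0.825 to 0.846), and Gfi1 had too few UMIs to be counted. In such sums, fewer cells of a type and less RNA per cell cannot be told apart, so the comparison was repeated within lineages. A TMM scaling moved every log2 ratio up by 0.226 over all cells, by 0.182 in monocyte- or macrophage-like cells and by 0.180 in neutrophil-lineage cells. Under it Nr4a1 over all cells had a ratio of 0.764 and no longer reached 1.5-fold. Keeping only cells with at least 200 genes per 1000 UMIs left 85.4% of control and 61.0% of OTM barcodes. It gave ratios of 0.437 for Cebpe, 0.708 for Irf8 and 0.715 for Nr4a1. Precursor clusters then held 82 and 77 control cells and 46 OTM cells, against 246 and 245 precursors before. The part of this unequal loss in these ratios was not tested.

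In monocyte- or macrophage-like cells, the same 3 members were lower by 1.5-fold or more, again of 7 counted and with 0 higher. The background over 6912 genes was 14.4% lower and 5.19% higher. Cbfa2t3 went from 20.4 CPM (162 UMIs in 1508 cells) to 2.47 CPM (22 UMIs in 1004 cells), 8.26-fold lower (5.27 to 13.5), and ranked 10 from the lowest ratio. Irf8 went from 100.5 to 63.2 CPM, 1.59-fold lower (1.43 to 1.77). Nr4a1 went from 253 to 166 CPM, 1.53-fold lower (1.43 to 1.63). Irf8 and Nr4a1 lay close to the 1.5-fold line, and with TMM scaling their ratios were 0.714 and 0.743, short of it, whereas that of Cbfa2t3 was 0.137. They ranked 748 and 912 from the lowest ratio. Cebpa moved the other way, from 23.7 to 29.6 CPM, with a ratio of 1.25 (1.03 to 1.52) that did not reach 1.5-fold. Cebpb had a ratio of 0.766 (0.754 to 0.778), Cebpe 0.762 (0.613 to 0.947) and Spi1 0.914 (0.855 to 0.976). Transcripts of other cells moved between these groups too. The summed level of 8 immature neutrophil markers, all 8 of which were found in both groups, was 14054 CPM in control and 26629 CPM in OTM monocyte- or macrophage-like cells. Of 8 erythroid markers, 7 and 8 were found, at a summed 333 and 6713 CPM. Their part in the results was not tested. The 8 B cell markers summed to 11.2 CPM in both groups.

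**Figure D2:**
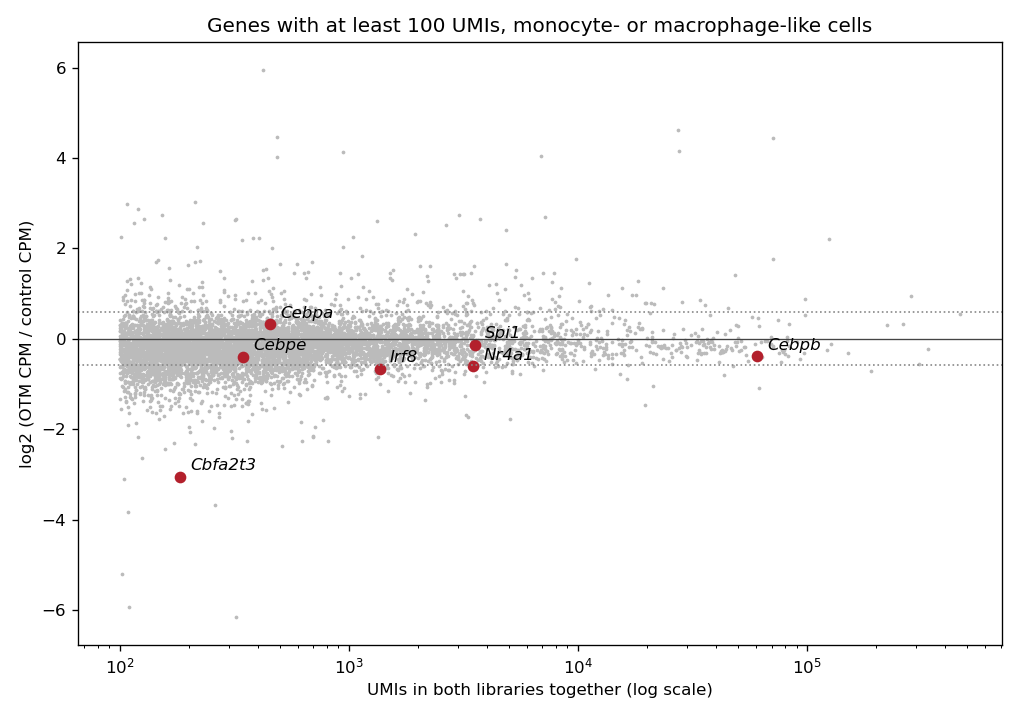
Ratio of OTM to control CPM (y axis, log2) against the UMIs of both libraries together (x axis, log scale) for 6909 genes with at least 100 UMIs in monocyte- or macrophage-like cells, in grey, with the 7 counted members in red. Dotted lines mark 1.5-fold, and 3 genes with 0 UMIs in 1 library are left out. Cbfa2t3, which ranks 10 from the lowest ratio, lies at a log2 ratio of -3.05, while Irf8 and Nr4a1 lie within the grey cloud at -0.67 and -0.61.

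In neutrophil-lineage cells beyond the precursor stage, Cebpe and Irf8 were lower in OTM by 1.5-fold or more, 2 of 5 counted members, with 0 higher. Over 3823 genes 14.0% were lower and 6.46% were higher. Cebpe went from 108 CPM (421 UMIs) to 65.0 CPM (286 UMIs), 1.67-fold lower (1.43 to 1.95), and 0.678 under TMM scaling, short of 1.5-fold. Irf8 went from 29.1 CPM (113 UMIs) to 10.00 CPM (44 UMIs), 2.91-fold lower (2.04 to 4.23). Much of this Irf8 signal came from few cells. When both libraries were clustered together, 36 of the 1029 control cells were placed with monocytes or macrophages, and 17 of these held 67 of the 113 UMIs, whereas the 892 cells that stayed neutrophil-like held 15. In OTM, 7 of 44 Irf8 UMIs were in the 700 cells that stayed neutrophil-like. With at least 200 genes per 1000 UMIs the Irf8 ratio was 0.714, short of 1.5-fold. Cbfa2t3 had 22 UMIs in control and 3 in OTM neutrophil-lineage cells, too few to be counted. Spi1 had a ratio of 1.03 (0.943 to 1.13), Nr4a1 0.734 (0.660 to 0.816) and Cebpb 0.941 (0.921 to 0.961). The direction of Cebpb flipped with TMM scaling, to a ratio of 1.07, and with all deposited barcodes, to 1.14. With all barcodes, 239 control immature neutrophil-like cells had a cell cycle score of 0.85 and counted as neutrophil-lineage. An OTM cluster of 160 immature neutrophil-like cells scored 1.25, above the limit of 1, and was left out as precursors. The part of this mismatch in the ratio of 1.14 was not tested.

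**Figure D3:**
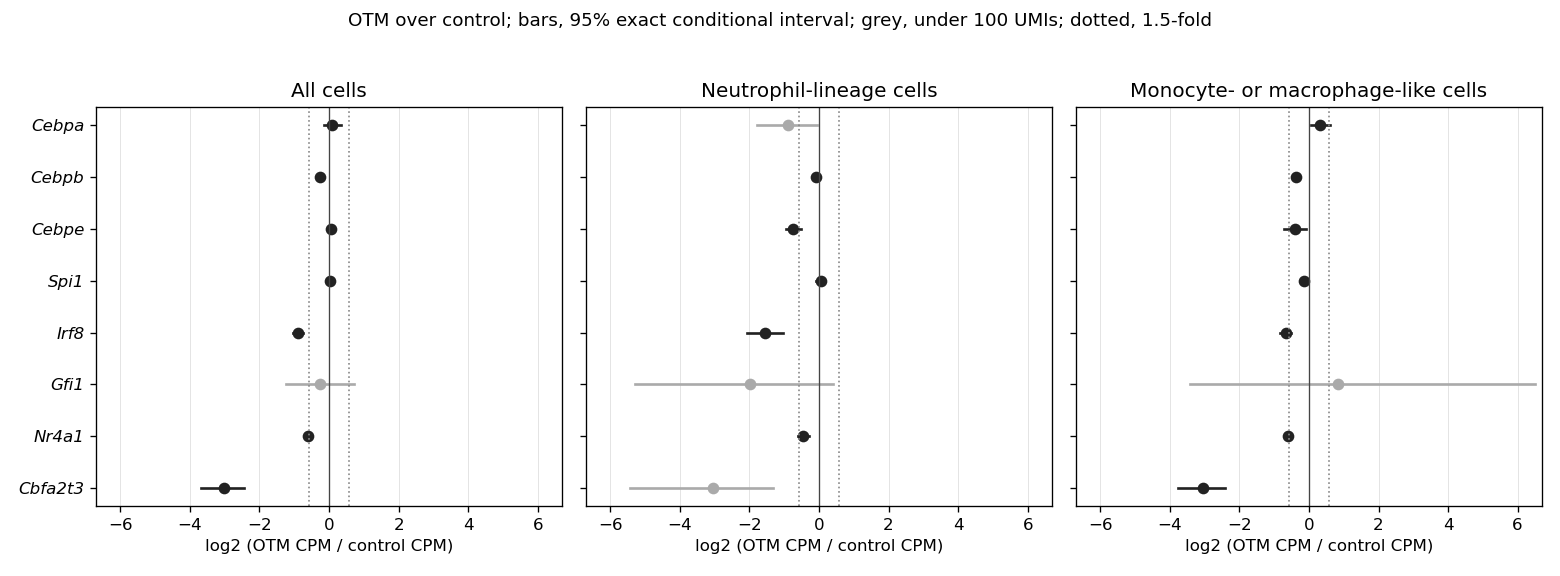
Log2 ratio of OTM to control CPM (x axis) for each measured member (y axis) over all cells, in neutrophil-lineage cells and in monocyte- or macrophage-like cells, with 95% exact conditional intervals as bars, some of which are clipped at the axis. Members with under 100 UMIs are grey and dotted lines mark 1.5-fold. Cbfa2t3 lies near -3 in all 3 panels, and the interval of Cebpa lies wholly above 0 only in the monocyte panel.

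Because clusters of the 2 libraries did not match one to one, the members were also followed in classes from the joint clustering, which was added after the data were seen. Cbfa2t3 was lower in OTM in each of the 4 monocyte classes. In cycling classical monocyte-like cells it went from 38.0 CPM (71 UMIs) to 2.01 CPM (3 UMIs), with a ratio of 0.0530 (0.0107 to 0.161). In classical monocyte-like cells it went from 16.0 CPM (57 UMIs) to 1.12 CPM (5 UMIs), with a ratio of 0.0698 (0.0218 to 0.173). The ratio was 0.233 (0.0863 to 0.577, 16 and 8 UMIs) in nonclassical monocyte-like cells. In MHC-II-high cells it was 0.379 (0.135 to 0.941, 19 and 7 UMIs). Both were less extreme, and their intervals excluded 1. In C1q macrophage-like cells 2 control UMIs and 0 OTM UMIs gave no usable ratio.

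Irf8 was lower in OTM in the same 4 monocyte classes, by 1.55-fold (1.30 to 1.85) in classical, 1.44-fold (1.19 to 1.75) in cycling classical, 2.30-fold (1.57 to 3.36) in nonclassical and 1.51-fold (1.14 to 2.00) in MHC-II-high cells. C1q macrophage-like cells had 86.2 CPM in control and 93.5 CPM in OTM, a ratio of 1.08 (0.624 to 1.86). Nr4a1 was at 518 CPM in control and 205 CPM in OTM nonclassical monocyte-like cells, 2.53-fold lower (2.19 to 2.93). In that class the summed level of 9 nonclassical monocyte markers also differed, at 1727 CPM in control and 636 CPM in OTM, as did that of 7 basophil or mast cell markers, at 876 and 12.95 CPM, and their part in the ratios of this class was not tested. It was 1.70-fold lower (1.53 to 1.89) in classical monocyte-like cells, and in cycling classical (ratio 0.887, 0.760 to 1.03) and MHC-II-high cells (1.10, 0.896 to 1.35) the interval included 1. Cebpa was at 24.4 CPM in control and 33.8 CPM in OTM classical monocyte-like cells, a ratio of 1.38 (1.05 to 1.82), and its intervals included 1 in the other named classes. Cebpe was lower in immature neutrophil-like cells (ratio 0.590, 0.469 to 0.742). In mature neutrophil-like cells its ratio was 0.326 (0.156 to 0.641), from 31 and 13 UMIs, too few to be counted. The 6 granulocyte progenitor markers summed to 371 CPM in control and 60.0 CPM in OTM mature neutrophil-like cells. In immature neutrophil-like cells they summed to 84.9 and 160 CPM, and their part in these ratios was not tested. In cycling immature neutrophil-like cells Cebpe had 306 and 287 CPM, a ratio of 0.937 (0.845 to 1.04). In the granulocyte progenitor-like class, 35 of whose 93 control cells were B cell-like in the separate clustering, Cebpe had 157 and 320 CPM, a ratio of 2.04 (1.64 to 2.54), and Irf8 had 115 and 26.4 CPM, 4.38-fold lower (2.58 to 7.92). The 8 immature neutrophil markers summed to 8711 CPM in control and 22945 CPM in OTM cells of this progenitor class, and their part in its ratios was not tested. In a class of 133 control and 61 OTM cells that stayed unnamed, Cebpe had a ratio of 5.44 (3.58 to 8.62), Nr4a1 was 4.03-fold lower (2.90 to 5.68) and Cebpa, with 13 and 5 UMIs, had a ratio of 0.271 (0.0757 to 0.811). In that class 8 immature neutrophil markers summed to 18808 CPM in control and 115689 CPM in OTM, and their part in these ratios was not tested.

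**Figure D4:**
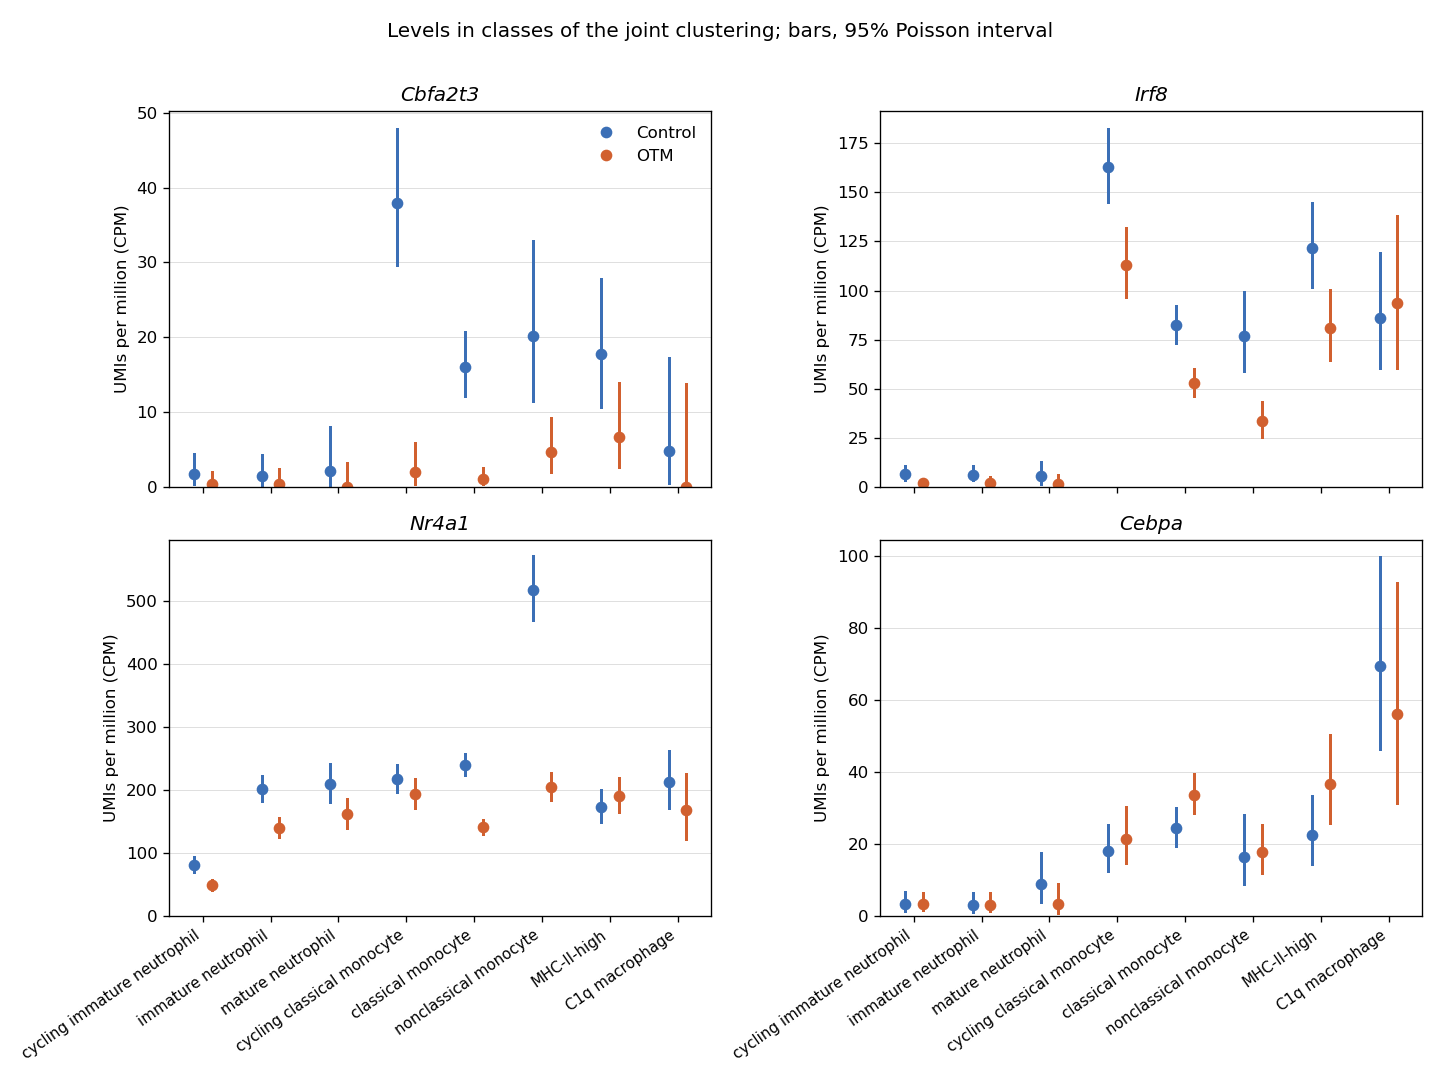
Levels of Cbfa2t3, Irf8, Nr4a1 and Cebpa (y axis, CPM, linear from 0) in 8 classes of the joint clustering (x axis), control in blue and OTM in orange, with 95% Poisson intervals. The blue Cbfa2t3 points of the 4 monocyte classes lie above the orange ones, the widest plotted Nr4a1 gap is in nonclassical monocyte-like cells at 518 against 205 CPM, and Cebpa is highest in C1q macrophage-like cells of both libraries.

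Precursors were compared at a finer clustering (resolution 1.0), where each library had its own progenitor-like cluster of 80 control and 108 OTM cells. These clusters came from separate clusterings and were not matched for stage. In the progenitor class of the joint clustering, immature neutrophil markers summed to 8711 CPM in control and 22945 CPM in OTM. The part of stage in the differences below was not tested. Cebpe was at 230.0 CPM (201 to 262) in control and 350 CPM (318 to 384) in OTM, and Spi1 at 195 CPM (169 to 225) and 262 CPM (235 to 293). Cebpa was at 26.5 CPM (17.3 to 38.8, 26 UMIs) and 11.2 CPM (6.13 to 18.8, 14 UMIs). Irf8 was at 56.0 CPM (42.2 to 72.9, 55 UMIs) and 9.60 CPM (4.96 to 16.8, 12 UMIs). The 55 control UMIs of Irf8 lay in 13 cells, 1 of which held 18. In that control cluster, 8 of the 13 cells with an Irf8 UMI had a Cebpe UMI (61.5%), compared with 89.6% of the others, and 8 of the 13 (61.5%) had a Cebpa UMI, compared with 17.9% of the others. Gfi1 had 9 UMIs in each library, and Cbfa2t3 had 1 and 2. In OTM the 12 Irf8 UMIs lay in 10 of 108 cells.

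Partners and relatives of the members were followed in gene lists. Of the ETO family and its partner proteins, 13 of 18 genes were counted in monocyte- or macrophage-like cells, of which 5 were lower and 0 higher in OTM, with a median log2 ratio of -0.45 against -0.15 over all genes. For this and the following lists in these cells, the shares over all genes were 14.4% lower and 5.19% higher. Among them were Lyl1, Lmo2, Kdm1a and Rcor1, at 1.62- to 1.95-fold lower, which include a DNA-binding partner and corepressors. Ratios and counts of the lists are given without TMM scaling, which moved every log2 ratio in these cells up by 0.182. Calls of lower genes close to 1.5-fold therefore depend on the scaling. Of 34 monocyte, macrophage and dendritic cell factors 28 were counted, with 10 lower and 1 higher, which was Tfec (median -0.29). Batf3, a factor of conventional dendritic cells, was 4.94-fold lower (3.35 to 7.50), from 17.8 to 3.59 CPM. Mef2c was 2.49-fold lower (2.14 to 2.91) and Nr4a2, a paralogue of Nr4a1, 2.41-fold lower (2.11 to 2.76). Runx2, from 15 other haematopoietic factors of which 9 were counted, 3 lower and 0 higher (median -0.43), was 2.47-fold lower (1.75 to 3.54). Of the 3 C/EBP relatives outside the members, Ddit3, which encodes the stress factor CHOP, was 2.44-fold lower (2.10 to 2.84), and Cebpg and Cebpz did not reach 1.5-fold (median -0.35). Over all cells the 5 smallest ratios among the lists were those of Batf3, Nr4a2, Mef2c, Runx2 and Klf4, from 0.220 to 0.463, and the 4 genes at 1.5-fold or more above control were Mmp8, Tfec, Flt3 and Lcn2, from 1.65 to 1.76. The counts over all cells were 4 higher and 22 lower of 73 counted genes, beside 4.21% higher and 16.0% lower over all genes.

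Granule genes that are known targets of the C/EBP proteins and PU.1 did not follow 1 direction. In monocyte- or macrophage-like cells all 5 azurophil granule genes were higher in OTM by 1.5-fold or more, led by Mpo, from 14.0 to 43.9 CPM (ratio 3.14, 2.54 to 3.91), Prtn3 (2.72, 2.51 to 2.96), Elane (2.54, 2.27 to 2.86) and Ms4a3 (2.41, 1.92 to 3.06). Of 5 specific granule genes, Mmp8 (2.73, 2.60 to 2.88) and Lcn2 (2.19, 2.13 to 2.26) were higher and 3 did not reach 1.5-fold. In neutrophil-lineage cells, where 14.0% of all genes were lower, 4 of the 5 azurophil genes were lower, among them Ctsg, from 96.1 to 27.5 CPM, 3.50-fold lower (2.84 to 4.33), Mpo, 2.45-fold lower (2.07 to 2.91), and Elane, 2.20-fold lower (1.98 to 2.46), and 0 of 5 specific granule genes reached 1.5-fold. Most of these genes also served to name clusters, so their levels in a class follow in part from the naming. Of the receptors, Il6ra was lower by 1.51-fold (1.33 to 1.73) and Flt3 higher by a ratio of 2.36 (1.57 to 3.61) in monocyte- or macrophage-like cells, and the other 4 counted did not reach 1.5-fold. In neutrophil-lineage cells, Id3 (ratio 1.82, 1.25 to 2.69), Irf1 (1.79, 1.30 to 2.51), Relb (1.68, 1.27 to 2.25), Batf (1.67, 1.26 to 2.21) and Hdac1 (1.53, 1.11 to 2.11) were higher, and Egr1 (2.20-fold, 2.02 to 2.40) and Klf4 (2.36-fold, 1.72 to 3.28) lower.

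The genes most like each member were ranked by Pearson's r of log2(CPM + 10) over the 18 clusters of both libraries among 6477 genes. The clusters share 2 libraries, and the values are a description. Cebpe was most like Agpat2 (0.96), Cldn15 (0.95) and Gca (0.94), and Irf8 was most like Lgals1, Fkbp1a and Arhgap17 (0.94 to 0.95). Cebpb was most like Hacd4 and Tyrobp (0.96) and Ets2 (0.95). Cebpa was nearest to Renbp, Golga4 and Glg1 (0.90 to 0.91), Spi1 to Cdk2ap2, Osgin1 and Gm11713 (0.84 to 0.88), and Nr4a1 to Clk1, Arhgap30 and Gabarapl2 (0.87 to 0.90). Cbfa2t3 was nearest to Gfod1 (0.90), Dgkd (0.86) and Cxcr4 (0.84). Gfi1 had too few UMIs for such a ranking. Between members, r was 0.67 for Irf8 and Cbfa2t3, 0.68 for Nr4a1 and Cbfa2t3, and -0.81 for Cebpe and Irf8. Cbfa2t3 was listed for its low level in OTM, where no cluster exceeded 4.72 CPM, and Irf8 and Nr4a1 were also lower in OTM over all cells. The nearest genes and r values of Cbfa2t3 therefore follow in part from that choice and from the difference between the libraries.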

How the data were processed

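The authors counted UMIs per gene and barcode (Cell Ranger 3.0.0 and Seurat 3.0.0, mm10, per the submitters' processing notes) and deposited these counts without normalization, for 2863 control barcodes (14620877 UMIs) and 2058 OTM barcodes (16500733 UMIs), fewer than the cells the study states to have used. The study divided its mice at random between both groups, and how many entered each library was not given in the sources used here. Barcodes with at least 200 genes and at most 5% mitochondrial UMIs were kept. Each library was clustered with Seurat 5.3.0 (12 and 8 principal components, resolution 0.6, seed 42), and clusters were named by mean marker z-score. Naming thresholds were set with the data at hand. Levels are summed UMIs per 1000000 with Poisson intervals, ratios have conditional binomial intervals and shares Clopper-Pearson intervals, all 95% and computed in Python 3.11.15 with scipy 1.17.1. A gene was counted from 100 UMIs and called at 1.5-fold. edgeR 4.0.16 gave TMM factors only. Scrublet in scanpy 1.11.5 called 1 control and 6 OTM doublets, too few to have worked, so doublets were kept. Genes named are the members, for each member the 3 most similar genes, and up to 5 listed genes at each end of a comparison, plus Lyl1, Lmo2, Kdm1a, Rcor1, Cebpg, Cebpz and Il6ra, named after their values were seen. An item of the lists is not reported here. Members and lists were chosen with earlier results of these data known. The ratio and calls were tested on simulated data.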

Additional observations from a re-analysis of the deposited data

Results flagged for a closer look

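Among the named classes of the joint clustering other than the granulocyte progenitor-like class, and members with at least 100 UMIs in a class, 3 members had ratios of OTM to control on opposite sides of 1 in different classes, with intervals that excluded 1, and the difference between classes was not tested. Cebpb had a ratio of 1.25 (1.13 to 1.39) in C1q macrophage-like cells and 0.605 (0.582 to 0.628) in nonclassical monocyte-like cells. Cebpe had a ratio of 1.93 (1.19 to 3.27) in nonclassical monocyte-like cells, from 21 and 87 UMIs, and 0.590 (0.469 to 0.742) in immature neutrophil-like cells. In the nonclassical class the summed level of 8 immature neutrophil markers was 43061 CPM in control and 61606 CPM in OTM. There 6 granulocyte progenitor markers summed to 139 and 616 CPM, and 9 cell cycle genes to 192 and 585 CPM. In the C1q class the immature neutrophil markers summed to 12696 and 29531 CPM. The part of all these markers in these ratios was not tested. Spi1 had a ratio of 1.18 (1.00 to 1.39) in mature neutrophil-like cells and 0.684 (0.578 to 0.810) in nonclassical monocyte-like cells.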

How the results depend on the processing

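No paired analysis was possible because each condition had 1 library and no test was run. The Cbfa2t3 ratio over all cells stayed between 0.105 and 0.143 over 6 alternatives, and in monocyte- or macrophage-like cells between 0.0905 and 0.137 over 12. At a 2-fold limit, 1 member (Cbfa2t3) was lower over all cells, 1 in monocyte- or macrophage-like cells and 1 (Irf8) in neutrophil-lineage cells. With TMM factors 1 was lower in monocyte- or macrophage-like cells and 1 in neutrophil-lineage cells. In neutrophil-lineage cells the count was also 1 at resolution 0.3, 1 with at least 200 genes per 1000 UMIs, and 1 in the joint clustering, added after seeing the data, and 4 from 20 UMIs. That reading of the gene filter kept 85.4% of control and 61.0% of OTM barcodes. It moved the Cebpe ratio over all cells to 0.437 and the Irf8 ratio in neutrophil-lineage cells to 0.714. It left 46 of the OTM precursors in a cluster, against 245 before, and control precursor clusters of 82 and 77 cells, against 246. The part of this unequal loss in the Cebpe ratio was not tested. The alternatives reversed the direction of no member at 1.5-fold or more. In monocyte- or macrophage-like cells the Irf8 ratio ranged from 0.596 to 0.714 and that of Nr4a1 from 0.603 to 0.743, and the Cebpe ratio in neutrophil-lineage cells from 0.420 to 0.698. Members with few UMIs (Gfi1, Cbfa2t3 in OTM) are limited by counting error.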
